A study of Mus musculus with 121 samples.

Results

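The 10 genes described here encode the subunits of respiratory complex I and complex IV that are carried by the mitochondrial DNA (mtDNA) itself: mt-Nd1, mt-Nd2, mt-Nd3, mt-Nd4, mt-Nd4l, mt-Nd5 and mt-Nd6 of complex I, and mt-Co1, mt-Co2 and mt-Co3 of complex IV. They were chosen by name as a gene family, and all 10 are among the 31053 genes of the count tables. Total RNA came from fibroblasts of a Per2::LUC knock-in mouse (genotype PER2::LUC sv, passage 25), a single line in which the clock protein PER2 is fused to luciferase, and all groups share this line, which was expanded in DMEM with 10% serum before the treatments. Cells had 3 cycles of 24 h with a change of medium every 12 h. In HL a medium of high glucose and insulin was followed by one of low glucose without added insulin. In LH the order was turned round, and in HH the high medium was given at every change. After a free-running interval without further cycles, RNA was collected 6 times, 4 h apart, and sequenced by 3′DGE, which reads the 3′ end of polyadenylated transcripts. The 62 libraries comprise 21 for HL, 22 for LH and 19 for HH, and each treatment has 2 to 4 at every collection. The age of the mouse is not given in the sources used here.

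Complex I takes electrons from NADH and pumps protons across the inner mitochondrial membrane, and complex IV passes the electrons to oxygen and pumps protons as well. The membrane arm of complex I is built around the ND subunits, the catalytic core of complex IV around COX1, COX2 and COX3, and both complexes are completed by subunits encoded in the nucleus. The mtDNA is transcribed as long precursors that are cut mostly at the tRNA genes. Mature mRNAs then receive short poly(A) tails, which complete the stop codon where the gene ends in an incomplete one. mt-Nd6 is the only protein gene read from the other strand, and in human cells its mRNA is known to lack a stable poly(A) tail. mt-Nd4l and mt-Nd4 are kept on 1 mRNA in mammals.

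The last 100 bases of each gene are shown because 3′DGE reads the 3′ end of an mRNA and uniquely aligned reads alone were counted. A read which matches a second place in the genome is thus not counted. mt-Nd4l shares its mRNA with mt-Nd4, which follows it, so the end of mt-Nd4l is not that of the mRNA. The bases were read from the GENCODE M21 transcripts (GRCm38, the build named mm10 by the submitters), 5′ to 3′ on the strand of the gene. Capitals mark bases inside the stretch of 100-base windows that occur letter for letter in another annotated transcript outside the mtDNA. The mtDNA has no introns, and each stretch lies in the only exon of its gene.
mt-Nd1, chrM:3608-3707, plus strand: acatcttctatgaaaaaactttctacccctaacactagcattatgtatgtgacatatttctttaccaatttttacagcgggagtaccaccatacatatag
mt-Nd2, chrM:4852-4951, plus strand: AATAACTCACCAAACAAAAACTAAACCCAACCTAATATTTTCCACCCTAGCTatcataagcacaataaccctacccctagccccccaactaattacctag
mt-Nd3, chrM:9707-9806, plus strand: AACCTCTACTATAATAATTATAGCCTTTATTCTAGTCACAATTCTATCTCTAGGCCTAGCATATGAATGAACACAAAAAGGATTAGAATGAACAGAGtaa
mt-Nd4, chrM:11445-11544, plus strand: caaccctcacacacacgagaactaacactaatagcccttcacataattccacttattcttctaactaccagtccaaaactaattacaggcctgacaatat
mt-Nd4l, chrM:10074-10173, plus strand: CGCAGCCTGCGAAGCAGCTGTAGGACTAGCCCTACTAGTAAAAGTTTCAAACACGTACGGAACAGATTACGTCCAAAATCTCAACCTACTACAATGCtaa
mt-Nd5, chrM:13466-13565, plus strand: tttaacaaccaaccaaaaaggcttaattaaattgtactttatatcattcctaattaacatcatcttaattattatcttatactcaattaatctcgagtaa
mt-Nd6, chrM:13552-13651, minus strand: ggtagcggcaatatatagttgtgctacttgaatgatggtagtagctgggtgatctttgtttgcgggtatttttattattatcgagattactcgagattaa
mt-Co1, chrM:6773-6872, plus strand: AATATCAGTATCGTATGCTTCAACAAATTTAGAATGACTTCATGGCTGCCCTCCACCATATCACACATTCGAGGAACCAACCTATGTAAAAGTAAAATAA
mt-Co2, chrM:7597-7696, plus strand: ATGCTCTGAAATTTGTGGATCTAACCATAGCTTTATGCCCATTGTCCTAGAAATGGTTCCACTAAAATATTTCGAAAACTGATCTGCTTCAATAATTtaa
mt-Co3, chrM:9291-9390, plus strand: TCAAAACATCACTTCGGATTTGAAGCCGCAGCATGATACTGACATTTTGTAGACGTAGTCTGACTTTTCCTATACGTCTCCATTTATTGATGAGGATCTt

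The genes mt-Nd4 and mt-Co3 end with a single T after the last whole codon, and the other 8 end with a whole TAA or TAG. Neighbouring genes also overlap. The last 7 bases of mt-Nd4l (chrM:10167-10173) are the first of mt-Nd4, and the last 14 bases of mt-Nd5 (chrM:13552-13565) lie opposite the end of mt-Nd6. These overlaps are in capitals in the sequences that follow, both on the plus strand.
mt-Nd4l into mt-Nd4: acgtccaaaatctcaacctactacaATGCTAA
mt-Nd5 over mt-Nd6: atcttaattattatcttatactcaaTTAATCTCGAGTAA
The strand setting of the counting is not given in the sources used here, so reads in the overlap of mt-Nd5 and mt-Nd6 cannot be assigned to 1 gene.

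Of the 201 windows of 100 bases that the last 300 bases of a gene hold, none in mt-Nd1, mt-Nd4, mt-Nd5 or mt-Nd6 had an exact copy in a transcript outside the mtDNA. In mt-Nd2 14.9% had one, in Gm13339. Among the others the share was 98.5% in mt-Nd3 (copy Gm28438), 98.5% in mt-Co2 (Gm28661), 99.5% in mt-Co3 (Gm28437) and 100% in mt-Co1 (Gm29216), and of the 198 windows of the shorter mt-Nd4l it was 98.5% (Gm10222). The copies of these 5 genes are annotated as unprocessed pseudogenes on the minus strand of chromosome 1, in a row that runs from mt-Nd4l at chr1:24612407-24612700 to mt-Co1 at chr1:24615706-24616197 (GRCm38). The copy of mt-Nd4 in that row, Gm28439, ends at base 876 of the gene and leaves its last 502 bases without a copy. None of the 10 pseudogenes with a copy is among the genes of the count tables. Only annotated transcripts were searched, and copies elsewhere in the nuclear genome were not analysed here.

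**Figure D1:**
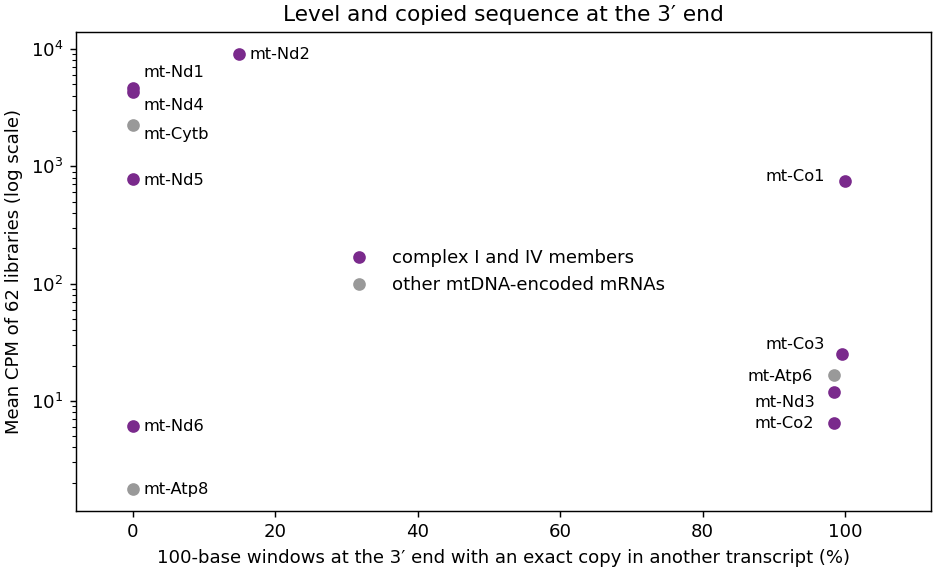
Mean level over 62 libraries in CPM (log axis) against the percent of 100-base windows in the last 300 bases with an exact copy in another annotated transcript, for 9 members (purple) and the other mtDNA-encoded mRNAs (grey). mt-Nd4l is left out because it had 1 count in all. mt-Co1 stands at 754 CPM with 100% of its windows copied, whereas mt-Co3, mt-Nd3 and mt-Co2 stand at 6.53 to 25.1 CPM with 98.5% to 99.5% copied.

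Levels are given as CPM, the count of a gene scaled to a library total of 1e6. A library's total was 104912 to 11619095 counts. The library of 104912 counts, LH collection 2 replicate 2, stands apart from the next lowest of 2136819, and in it 1 count is 9.53 CPM. All 12 fibroblast markers were detected, with a summed level of 19092 to 44393 CPM, whereas keratinocyte markers summed to at most 9.53 CPM, adipocyte markers to at most 13.1, muscle markers to at most 1.95, endothelial markers to at most 270 (mostly Kdr), leukocyte markers to at most 324 and chondrocyte markers, of which Sox9 was the highest, to at most 1128.8. The highest leukocyte, chondrocyte and adipocyte sums each stood in a library of LH collection 2, namely 324 CPM in replicate 2 (34 counts, next library 30.7), 1128.8 in replicate 1 (next 671) and 13.1 in replicate 4 (28 counts, next 1.26). For 40 libraries the read summary of the study gives the library number another name than the title, or none, and the sources do not settle which is right. Results are by title unless said otherwise, and those by library number rest on 57 libraries, 19 of each treatment, with a single one for LH at the fifth collection, which the fits take to vary like the other groups. The methods of the study call its replicates biological, but the labels do not say which libraries came from separate cultures, and p-values measure the spread between these libraries. In such bulk samples, fewer mitochondria or cells and less RNA in each cannot be told apart.

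Together the 10 genes made up 1.14% to 3.15% of all counts in a library, with a median of 1.88%. A group of 5 genes carried nearly all of this, and it held 4 of the 7 complex I genes but a single one of the 3 complex IV genes. mt-Nd2, a subunit of the proton-pumping membrane arm, was the highest member with 9074.2 CPM ± 2401.4 (SD, n = 62), from 3986.6 to 16113.7 around a median of 8535.1. It was above mt-Nd1 in 62 of 62 libraries, and it took 41.5% of the counts of the 13 mRNAs of the mtDNA.

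mt-Nd1, the subunit next to the quinone-binding site, had 4680.9 CPM ± 1013.6 (SD, n = 62; 2939.4 to 8025.0, median 4529.7). mt-Nd4, another subunit of the membrane arm, had 4340.9 CPM ± 1335.2 (1715.8 to 8602.5, median 4147.3). These neighbours in the order did not differ beyond their spread, mt-Nd1 being the higher in 39 of 62 libraries. mt-Nd5, the subunit at the far end of the membrane arm, followed at 778 CPM ± 161 (502 to 1523.8, median 748), below mt-Nd4 in all 62 libraries.

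mt-Co1, the subunit of complex IV that holds the site of oxygen reduction, had 754 CPM ± 192 (SD, n = 62; 418 to 1490.5, median 708). It lay within the spread of mt-Nd5, which was the higher in 47 of 62 libraries. The step to the next gene was the widest between detected neighbours: the mean of mt-Co1 was 30.0 times that of mt-Co3, another core subunit of complex IV, which had 25.1 CPM ± 8.11 (6.92 to 54.4, median 23.8). mt-Co2, the subunit that receives electrons from cytochrome c, had 6.53 CPM ± 2.94 (2.65 to 19.1, median 5.83). Its highest value is from the library of 104912 counts, and without that library the maximum was 13.8 CPM.

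Among the low complex I genes, mt-Nd3 had 11.8 CPM ± 5.10 (SD, n = 62; 3.93 to 30.0, median 11.2) and was above mt-Co2 in 57 of 62 libraries. mt-Nd6, on the other strand, had 6.13 CPM ± 5.00 (0.997 to 27.2, median 4.66), and mt-Co2 was above it in 36 of 62 libraries, so that this pair was not separated. mt-Nd4l had 1 count in the 358360816 counts of all libraries, in LH collection 3 replicate 2, and 0 in the other 61. This is 0.00279 CPM with an exact Poisson interval (95%, counting error only) of 7.06e-05 to 0.0155 CPM. A count of 0 allows up to 0.515 CPM in a library of median depth, taking 3 counts as the limit. The order per kilobase was close to that by CPM, with mt-Nd2 at 8742.0 CPM per kb of gene, mt-Nd1 at 4891.2, mt-Nd4 at 3150.1, mt-Co1 at 488 and mt-Nd5 at 427, but counts of the 3′ end do not grow with length and this scale divides by it.

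Of the remaining mRNAs of the mtDNA, mt-Cytb of complex III had 2270.2 CPM ± 587 (SD, n = 62), and its last 300 bases held no copied window. mt-Atp6 had 16.5 CPM with 98.5% of windows copied (Gm10925), and mt-Atp8, which precedes it on a shared mRNA, had 1.77 CPM with none. The 2 rRNA genes of the mtDNA, mt-Rnr1 and mt-Rnr2, were not among the genes used here. Thus each of mt-Nd3, mt-Nd4l, mt-Co2 and mt-Co3 had a low level and copied windows, mt-Co1 had copied windows at a level like that of mt-Nd5, and mt-Nd6 was low without a copy. Of these, mt-Nd4l precedes mt-Nd4 on a shared mRNA, so its last bases are not the 3′ end that 3′DGE reads. Neither the part of this in its level nor whether reads were lost to the copies was tested.

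**Figure D2:**
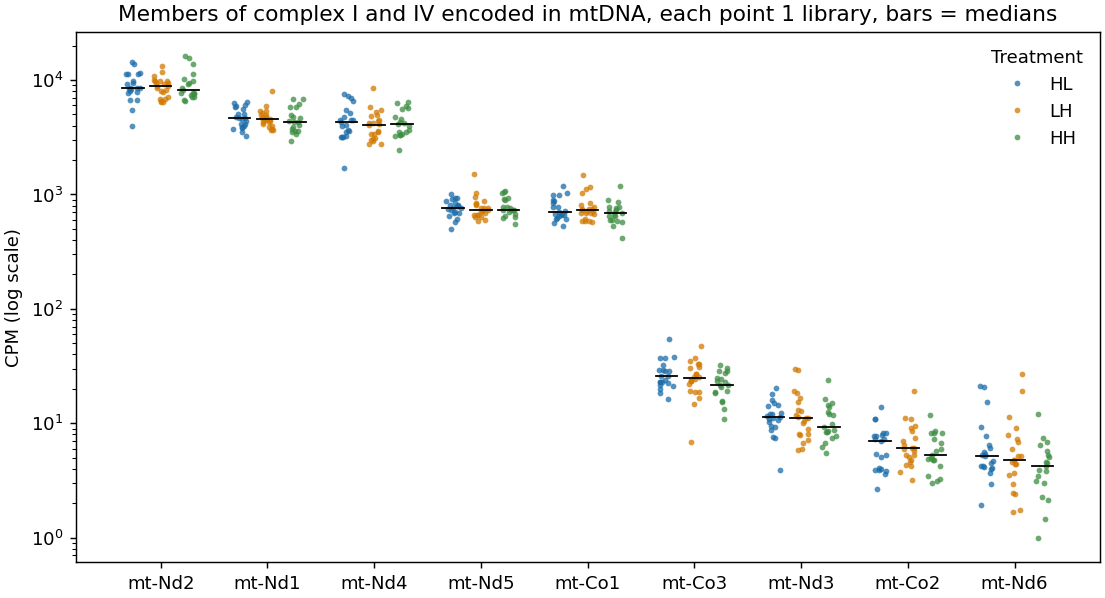
CPM (log axis) of the 9 detected members, each point 1 library, coloured by treatment, with a bar at the median of each treatment. The 3 treatments overlap for every member, and the members fall into 5 with medians of 708 to 8535.1 CPM and 4 with medians of 4.66 to 23.8 CPM.

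The error of a level differed between the high and the low members. On the log2 scale the SD between the sequencing runs of a library (n = 55 libraries with both runs and adequate depth) was 0.0302 for mt-Nd2, 0.0400 for mt-Nd4, 0.0402 for mt-Co1, 0.0453 for mt-Nd5 and 0.0570 for mt-Nd1. Between libraries of 1 treatment and collection it was 0.251 for mt-Nd1 to 0.364 for mt-Nd4 among these 5. The spread of the high members thus lay between libraries, not between runs. For mt-Co3, mt-Nd3, mt-Co2 and mt-Nd6 the SD between runs was 0.232, 0.281, 0.367 and 0.444, beside a counting error of 0.183, 0.264, 0.355 and 0.423. Their SD between libraries was 0.444 for mt-Co3 to 0.764 for mt-Nd6.

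Over 61 libraries (without the one of 104912 counts), the 10 pairs among the 5 high members had Pearson correlations of log2 CPM from 0.0427 to 0.779 with a median of 0.634, as a description of libraries that share depth and scaling. After the means of each treatment and collection were subtracted the median was 0.573. The 6 pairs among the 4 low members had a median of 0.224, and 0.127 after subtraction. Several libraries of the second collection were extreme for more than 1 member. LH collection 2 replicate 4 held the highest CPM of mt-Nd1, mt-Nd3, mt-Nd4, mt-Nd5 and mt-Co1, and LH collection 2 replicate 1 the highest of mt-Nd6 and the lowest of mt-Co3. HL collection 2 replicate 3 held the lowest of mt-Nd2 and mt-Nd4, and HH collection 2 replicate 1 the lowest of mt-Nd1 and mt-Co1.

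A mean over the 10 members was taken of log2 CPM scaled by TMM as in the edgeR fits. Each member had equal weight in it, the low ones included. Of 7771 genes outside the mtDNA with at least 10 CPM, those most like this mean over the 62 libraries included Cox14 (Pearson r 0.635), Vmp1 (0.604), Tram1 (0.592) and Lsm4 (0.590). Cox14 takes part in the assembly of complex IV. The values of r describe the libraries. After the means of treatment and collection were subtracted the closest were Gid8 (0.610), Vmp1 (0.603), Rnf5 (0.603), Bmt2 (0.586) and Cnih1 (0.584), so Vmp1 alone was in both lists of 5.

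The first question of the design is whether the order of the media changed the level of these genes. With all collections in 1 fit by title, it did not pass the test for any member. mt-Nd2 had a median of 8529.1 CPM under HL (range 3986.6 to 14327.0), 8838.2 under LH (range 6421.5 to 13148.6) and 8122.4 under HH (range 6621.8 to 16113.7). mt-Nd1 had 4657.1 CPM under HL (range 3245.8 to 6465.6), 4529.7 under LH (range 3640.1 to 8025.0) and 4304.5 under HH (range 2939.4 to 6883.1). The treatments overlapped over most of their range for both.

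mt-Nd4 had a median of 4324.8 CPM under HL (range 1715.8 to 7529.6), 4071.5 under LH (range 2743.5 to 8602.5) and 4161.9 under HH (range 2438.6 to 6424.4). mt-Nd5 had 759 CPM under HL (range 502 to 1012.7), 731 under LH (range 584 to 1523.8) and 734 under HH (range 554 to 1072.2). mt-Co1 had 704 CPM under HL (range 527 to 1184.2), 725 under LH (range 575 to 1490.5) and 688 under HH (range 418 to 1197.2). No treatment stood apart for these 3 genes. The low members overlapped as widely, and mt-Co3 had a median of 25.8 CPM under HL (range 16.2 to 54.4), 24.8 under LH (range 6.92 to 47.7) and 21.8 under HH (range 10.9 to 32.1).

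edgeR tested 13292 genes, among them 9 of the 10 members, since mt-Nd4l did not reach 1 CPM in 3 libraries. The thresholds were p under 0.01 over the 3 treatments and under 0.05 for the pair, without adjustment. With them 0 of 9 members changed in LH against HL (1.16% of all genes), 0 of 9 in HH against HL (1.20%) and 0 of 9 in LH against HH (0.910%). After Benjamini-Hochberg adjustment no gene of the whole table passed in any pair, and DESeq2 called 0 members. At an unadjusted p under 0.05 the members counted 0 in LH against HL (5.69% of all genes), 2 in HH against HL (7.41%) and 0 in LH against HH (5.23%). LH against HL and HH against HL share the HL libraries.

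In LH against HL the log2 differences ran from -0.19 to 0.06 with a median of -0.06, beside 0.001 over all genes. For mt-Nd2 the difference was -0.06 ± 0.10 (SE; 95% interval -0.25 to 0.13), for mt-Nd1 -0.05 ± 0.09 (-0.22 to 0.13) and for mt-Co1 0.02 ± 0.10 (-0.19 to 0.23). Over these 3 genes the intervals reach from -0.25 to 0.23. For mt-Nd6 the interval was far wider, -0.69 to 0.36.

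In HH against HL all 9 differences were below 0 by title with TMM scaling, from -0.64 to -0.01 with a median of -0.13, beside 0.002 over all genes, but with library totals as the scale mt-Nd2 stood at 0.01 and mt-Nd5 at 0.03, and by library number mt-Nd4 at 0.11 and mt-Nd5 at 0.06. The 2 members with an unadjusted p under 0.05 were mt-Co3 at -0.34 ± 0.13 (SE; adjusted p = 0.569 in edgeR) and mt-Nd6 at -0.64 ± 0.28 (adjusted p = 0.628). Over the alternatives by title the difference of mt-Nd6 ran from -0.86 to -0.32, and by library number it was -0.19. That of mt-Co3 ran from -0.40 to -0.28, and by library number it was -0.18. mt-Nd6 had a median of 5.15 CPM under HL (range 1.92 to 21.3) and 4.22 under HH (range 0.997 to 12.1). Neither passed after adjustment, and mt-Co1 at -0.16 and mt-Co2 at -0.24 had adjusted p of 0.772 and 0.776. In LH against HH the median difference was 0.15, beside 0.000 over all genes, and the highest was that of mt-Nd6 at 0.47 ± 0.28 (95% interval -0.09 to 1.02).

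**Figure D3:**
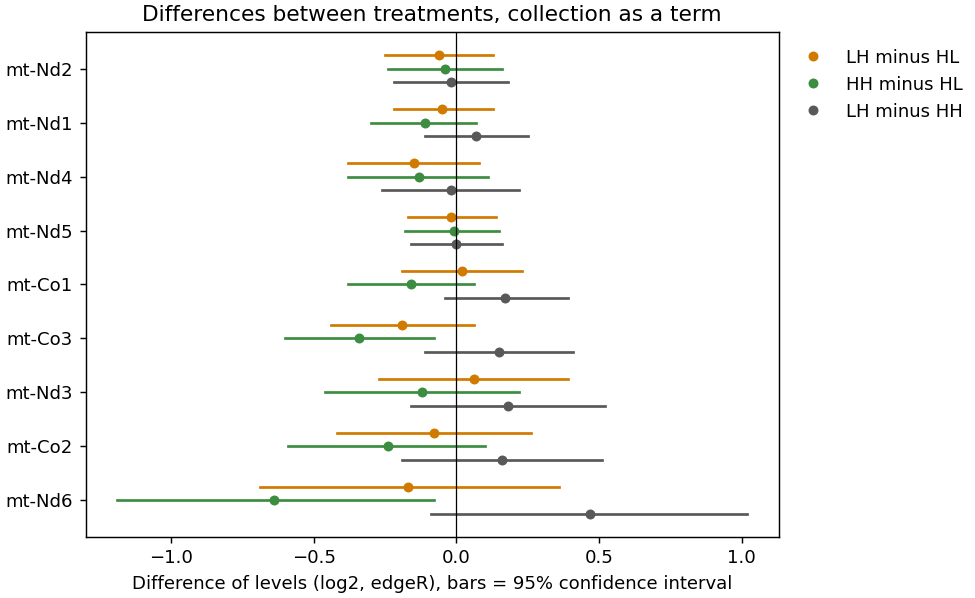
Log2 differences of 9 members between treatments from edgeR with collection as a term; points are estimates and bars 95% confidence intervals. The intervals of mt-Co3 and mt-Nd6 in HH against HL, -0.60 to -0.08 and -1.19 to -0.08, leave out 0, and the intervals of the other members include it.

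By library number 1 member passed the same thresholds. mt-Nd4 was 0.32 ± 0.08 higher in LH than in HL on the log2 scale (adjusted p = 0.358 in edgeR; 1.34% of all genes passed) and 0.22 ± 0.08 higher in LH than in HH (adjusted p = 0.374; 1.63%). Its median was then 4010.1 CPM under HL (range 2743.5 to 5755.8), 4498.7 under LH (range 3182.6 to 7529.6) and 4161.9 under HH (range 2438.6 to 6424.4), with wide overlap. By title the same differences were -0.15 and -0.02, so the direction for mt-Nd4 turned with the source of the names.

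The next question is whether levels changed over the 6 collections. Collections were taken by their number, 4 h apart, since the hours written in the titles do not run in order. For HL and HH these hours are 20, 12, 4, 8, 12 and 16 from the first to the sixth collection, and for LH they are 20, 12, 16, 20, 12 and 16. At collections 3 and 4 LH thus carries an hour 12 h away from that of HL and HH, and equal numbers may there not be equal times. All results on LH over time, the rhythm tests included, rest on the order of the numbers. By title mt-Nd2 had its highest group means in HH at the first collection and in HL at the third. The first was 13786.5 CPM ± 3041.0 (SD, n = 4; 16113.7, 13864.0, 9467.2 and 15701.0), and the other 13136.1 ± 1589.7 (n = 3; 14327.0, 13750.4 and 11330.9). At the third collection the 3 HL libraries lay above the 4 of LH (6839.8 to 8823.2) and the 3 of HH (6671.2 to 7665.6) without overlap, but within this collection mt-Nd2 did not pass in edgeR against LH (adjusted p = 0.399) or HH (adjusted p = 0.184). By library number the separation was gone, with 6434.1 to 9257.1 CPM in HL, 5513.6 to 8529.1 in LH and 6671.2 to 7665.6 in HH.

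mt-Nd4 did likewise at the third collection by title, with 7193.5, 6503.9 and 6967.7 CPM in HL, 3511.4, 3006.5, 3608.9 and 3102.6 in LH and 3218.2 to 3356.3 in HH. The HL libraries did not overlap with the others, and again the test within the collection was not passed against LH (adjusted p = 0.118 in edgeR) or HH (adjusted p = 0.184). By library number the order was turned round. HL then had 2743.5 to 3102.6 CPM, below LH (3257.3 to 4503.9) and HH (3218.2 to 3356.3) without overlap, and neither difference passed in edgeR (adjusted p = 0.896 and 1.0). By title LH was lowest at the fourth collection, at 2965.5 CPM ± 304 (SD, n = 4). At the third collection mt-Nd1 had 5820.0 CPM ± 1009.1 (n = 3) in HL, 4179.5 ± 536 (n = 4) in LH and 3577.8 to 4067.2 in the 3 libraries of HH. Its HL libraries, from 4657.1 CPM, overlapped with those of LH, which reached 4948.3 CPM. By title 5 of 9 members had an unadjusted p under 0.05 in edgeR at this collection in LH against HL (2.91% of all genes). In HH against HL, which shares the HL libraries, 5 of 9 did (3.37%), and none passed after adjustment in either pair. In LH against HL mt-Nd4 stood at -1.07 and mt-Nd2 at -0.77 by title, and at 0.45 and -0.08 by library number.

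Within single collections by title, 3 members passed after adjustment in edgeR, all in LH against HH at the second collection (7.12% of all genes): mt-Co1, higher in LH by 1.08 ± 0.25 on the log2 scale (SE; adjusted p = 0.0095), mt-Nd5 by 0.64 ± 0.18 (adjusted p = 0.026) and mt-Nd6 by 2.37 ± 0.71 (adjusted p = 0.0359). With all libraries no member passed in the other pairs and collections. At the same collection, in HH against HL, 0 of 9 passed after adjustment (0.0828%) and 7 of 9 had an unadjusted p under 0.05 (14.5%), with mt-Co3 at -1.27 ± 0.30 (SE; adjusted p = 0.0609), mt-Co1 at -0.88 ± 0.24 (adjusted p = 0.0881) and mt-Nd6 at -1.52 ± 0.64 (adjusted p = 0.26). The count of 7 was 4 without HH replicate 1 (8.73%) and 3 without HH replicate 3 (11.2%), and by library number it was 0 of 9 (2.52%), with mt-Co3 at -0.51, mt-Co1 at -0.07 and mt-Nd6 at -0.03. Malat1, taken up below, had 13087.9 CPM ± 4622.2 (SD, n = 4) in HL at this collection and 6144.2 ± 1083.2 (n = 3) in HH. HL replicate 3 had 8486 genes above 5 CPM, with 21.3 CPM of mt-Nd6 and 1184.2 CPM of mt-Co1. No HL library of this collection was left out of these fits, and the part of these measures was not tested. With LH replicate 1 or replicate 4 out of the fit, mt-Co3 passed after adjustment in HH against HL (0.279% and 0.128%). Without LH replicate 4 mt-Co3 also passed in LH against HL, at -1.65 (adjusted p = 0.0219; 9.03% of all genes), where it stood at -0.74 with all libraries (adjusted p = 0.309; 0.278%), at -0.09 without LH replicate 1 and at -0.01 by library number.

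LH has 3 libraries at this collection, among them the one of 104912 counts and the pair with extreme values named above. Replicate 1 had 8225 genes above 5 CPM, the fewest of all libraries (median 9167), beside 27.2 CPM of mt-Nd6 and 1171.4 CPM of mt-Co1. In HH collection 2 replicate 1, another library of this comparison, 8795 genes were above 5 CPM, with 1.47 CPM of mt-Nd6 and 418 CPM of mt-Co1. As given above, the 3 LH libraries also hold the highest sums of leukocyte, chondrocyte or adipocyte markers. The part of these measures in the result was not tested. The share of all genes that passed in LH against HH also moved with 1 library of LH left out. Without replicate 1 it was 2.06%, and mt-Co1 stood at 0.86 (adjusted p = 0.0744) and mt-Nd6 at 1.09 (adjusted p = 0.562), and mt-Nd5 still passed (0.82). Without replicate 4 it was 18.4%, mt-Nd5 stood at 0.30 (adjusted p = 0.276), and mt-Co1 (0.97) and mt-Nd6 (2.92) still passed. Without replicate 2, the one of 104912 counts, it was 9.89%, these 3 passed and mt-Nd1 did as well (0.73, adjusted p = 0.0197). The calls rested on the HH libraries as well. Without HH replicate 1 no member passed (0.723% of all genes), with mt-Co1 at 0.93 (adjusted p = 0.0749), mt-Nd5 at 0.59 (adjusted p = 0.126) and mt-Nd6 at 1.98 (adjusted p = 0.167). Without HH replicate 3 none passed either (1.84%), the smallest adjusted p being 0.0508 for mt-Co1. Without HH replicate 4 the same 3 passed (7.46%). By library number the LH libraries of this collection have no name or another one, and no gene passed in this comparison in edgeR after adjustment (524 genes and 1 member, mt-Nd4, had an unadjusted p under 0.05). The differences there were 0.31 for mt-Co1, 0.24 for mt-Nd5 and 0.01 for mt-Nd6.

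Over collections, 0 of 9 members passed after adjustment (1.65% of all genes), and 3 had an unadjusted p under 0.05 (13.3%): mt-Nd6 (adjusted p = 0.114), mt-Co1 (adjusted p = 0.192) and mt-Nd2 (adjusted p = 0.297). For the interaction of treatment and collection in edgeR, 0 of 9 passed after adjustment (0.128%), and 5 had an unadjusted p under 0.05 (11.6%). These 5 were the high members. The adjusted p was 0.0574 for mt-Nd2, 0.0957 for mt-Nd4, 0.134 for mt-Nd1, 0.225 for mt-Nd5 and 0.292 for mt-Co1. With DESeq2 in place of edgeR mt-Nd1, mt-Nd2 and mt-Nd4 passed after adjustment (1.35% of genes).

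By library number the picture was another one. Over collections 4 members passed after adjustment in edgeR (5.42% of all genes), mt-Nd2 (adjusted p = 9.9e-07), mt-Nd4 (1.26e-05), mt-Nd1 (0.00184) and mt-Nd5 (0.0216), and no member passed for the interaction, where the smallest adjusted p was 0.698. The mean of mt-Nd2 was 12713.4 CPM ± 2360.6 (SD, n = 10) at the first collection, 8708.9 ± 1377.2 (n = 9) at the second, 7195.7 ± 1078.1 (n = 10) at the third, and then 9105.8, 8033.6 and 8859.2. That of mt-Nd4 was 5856.9, 4288.8, 3354.4, 3862.5, 3829.1 and 4602.2 CPM. Pooled over the treatments, both genes were highest at the first collection and lowest at the third. Single treatments differed from this order. In HL mt-Nd2 was highest at the sixth collection, at 11294.9 CPM ± 1686.9 (n = 3) beside 10861.2 ± 977 (n = 3) at the first, which is within the spread. In LH mt-Nd4 had 3756.1 CPM at the third collection (n = 4), 3723.5 at the next (n = 4) and 3540.5 in the single library of the fifth. In HH mt-Nd2 and mt-Nd4 were both highest at the first collection and lowest at the third.

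**Figure D4:**
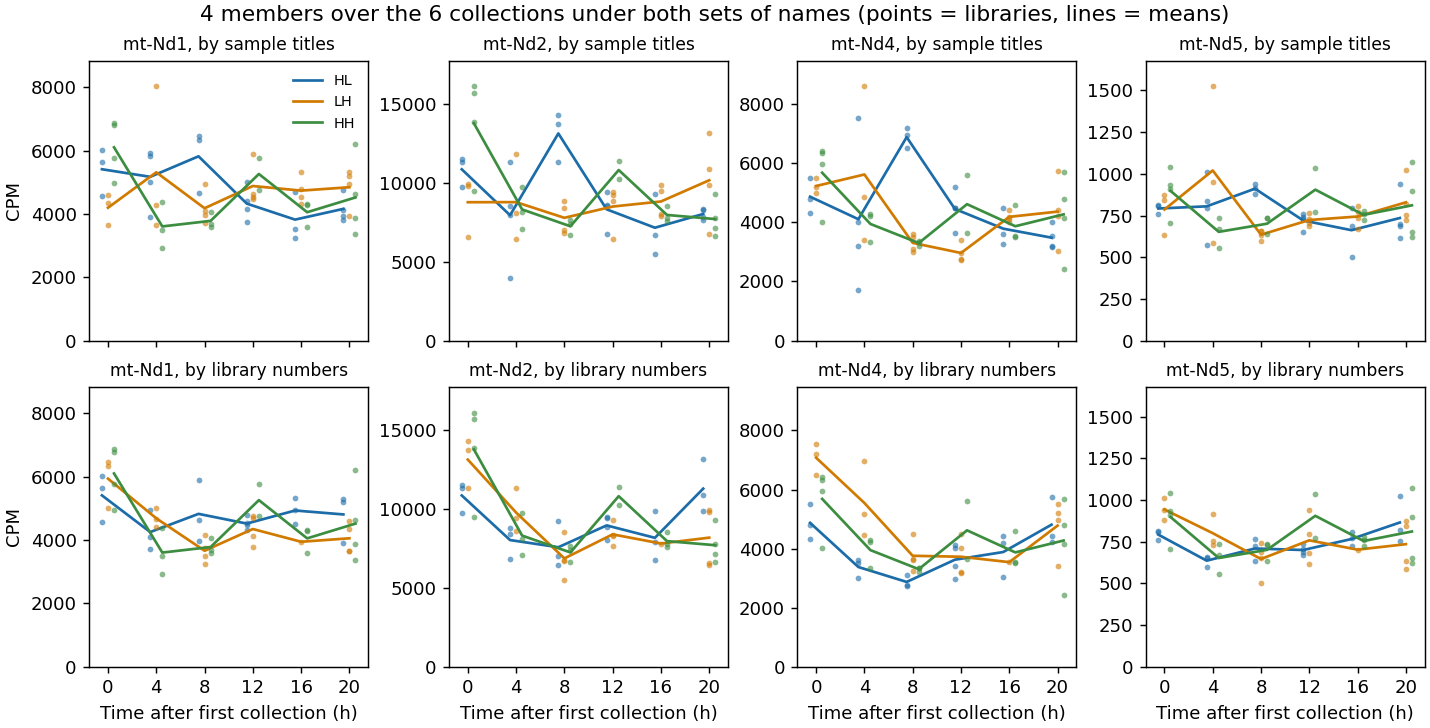
CPM of mt-Nd1, mt-Nd2, mt-Nd4 and mt-Nd5 against the time after the first collection (h), with treatment and time by sample title in the upper panels and by library number in the lower; points are libraries and lines group means. By title mt-Nd2 in HL peaks at the third collection (13136.1 CPM), and by library number the highest means of mt-Nd2 and mt-Nd4 in LH and HH stand at the first.

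Rhythms of 24 h were tested with JTK_CYCLE in each treatment, at P under 0.01 without adjustment over genes. The P called exact here comes from the exact null distribution for collections as separate groups, corrected over the phases. Collections with equal values of the reference curve are ties in the statistic but not in this null, so P is not exact for it. By title mt-Nd4 in LH was the only member to pass (exact P = 0.000822, adjusted P = 0.683), with its peak at 0 h, which is the first collection, and an amplitude of 1034 CPM, which is 24.8% of its mean of 4176.4 CPM. Of all genes, 0.933% passed in LH, 0.466% in HL and 1.22% in HH. In LH mt-Nd4 had 5501.3, 5213.9 and 4984.1 CPM at the first collection and 2766.5, 2743.5, 2953.2 and 3399.0 at the fourth, without overlap. At the second collection it had 3406.6, 4861.2 and 8602.5, at the fifth 4010.1 to 4413.2 and at the sixth 3037.2 to 5755.8. The call was lost without LH replicate 2 (exact P = 0.0378), where mt-Nd6 passed instead (exact P = 0.00219), and without LH replicate 3 (exact P = 0.0163).

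In HL the lowest P was that of mt-Nd1 (0.0381), and in HH that of mt-Nd4 (0.246). By library number mt-Nd4 passed in HL (exact P = 0.000937, peak at 20 h; 1.03% of genes passed) and in LH (P = 0.00171, peak at 0 h; 1.31%), and no member passed in HH (1.23%), where the libraries are the same under both names. The test of a difference in rhythm between the treatments called 0 of 9 members after adjustment (0.150% of all genes) and 2 at an unadjusted p under 0.05 (10.5%), mt-Nd4 (adjusted p = 0.218) and mt-Nd1 (adjusted p = 0.416). In this fit a rhythm of mt-Nd4 in 1 treatment is therefore not shown to differ from the others. With no filter on low counts mt-Nd4 did pass the same test (adjusted p = 0.0403 in edgeR, with 1.42% of all genes), so the call depends on the filter.

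Nuclear genes of the same complexes were examined as lists. Of 36 tested nuclear subunits of complex I, 0 rose and 3 fell in LH against HL, Ndufa2, Ndufa5 and Ndufc1, at the same unadjusted thresholds (0.730% of all genes fell). These genes also fell in HH against HL (0.745%), which shares the HL libraries. The median difference of the list was -0.08 and -0.07. Of 13 tested nuclear subunits of complex IV, Cox6c alone fell, by 0.16 on the log2 scale in LH against HL and by 0.19 in HH against HL. No gene of either list passed after adjustment, and LH against HH had 0 calls in both.

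Of 21 tested genes of mitochondrial RNA processing, tailing and decay, Hsd17b10, a protein of the mitochondrial RNase P, passed the thresholds and fell in LH against HL by 0.17 on the log2 scale (adjusted p = 0.625) and also in HH against HL. Of 15 tested genes of mtDNA transcription and replication none passed the thresholds in any of the 3 pairs. Tefm, the mitochondrial transcription elongation factor, had the smallest p in HH against HL, at 0.70 on the log2 scale (adjusted p = 0.628), and Tfam, which packages the mtDNA, the smallest for the interaction (adjusted p = 0.341). In the JTK_CYCLE test 1 complex I subunit of the nucleus passed, Ndufv3 in HL (exact P = 0.00211, adjusted P = 1.0; 0.466% of all genes passed). In the test of a difference in rhythm 13 of 36 nuclear complex I subunits and 6 of 13 of complex IV had an unadjusted p under 0.05 (10.5% of all genes), and by library number 8 of 36 and 5 of 13 (5.63%). In the cosinor by title 9 of 36 and 8 of 13 did in HH (9.2%). In LH it was 7 of 36 and 2 of 13 (9.8%), and in HL 2 of 36 and 0 of 13 (5.2%). None passed after adjustment in these tests.

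Malat1, an RNA kept in the nucleus, varied between libraries and moved with some members. This relation was looked for after the values had been seen. Over 62 libraries the log2 CPM of mt-Co1 had a Pearson r of 0.672 and a Spearman rho of 0.599 with that of Malat1, and mt-Nd6 an r of 0.640 and a rho of 0.590. In both genes the permutation p of r and of rho was 1e-05 (two-sided, 100000 resamples, the smallest they can give), and 4.5e-05 after adjustment over the 9 members. The resamples exchanged all 62 libraries without regard to treatment or collection. The adjustment does not cover the choice of Malat1 from other genes. Without the 2 libraries farthest from the median of Malat1, r was 0.648 for mt-Co1 and 0.546 for mt-Nd6. Within HL, LH and HH it was 0.773, 0.711 and 0.475 for mt-Co1, and 0.788, 0.566 and 0.480 for mt-Nd6.

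mt-Nd2 had an r of -0.325 (permutation p = 0.0102, adjusted p = 0.0307) and a rho of -0.146 (permutation p = 0.255), and without the 2 libraries r was -0.14, so its relation rested on them. For mt-Nd1, mt-Nd4, mt-Nd5, mt-Co2 and mt-Co3 the adjusted permutation p of r was at least 0.170, and mt-Nd3 had an r of 0.291 (adjusted p = 0.05). Without the 2 libraries r was 0.355 for mt-Nd1, in place of 0.194, and 0.381 for mt-Nd3. Within HL r was -0.507 for mt-Nd2, -0.529 for mt-Nd4 and -0.481 for mt-Nd5, whereas within LH it was -0.217, 0.0137 and 0.141 and within HH -0.146, 0.0221 and 0.283. Both of the 2 libraries farthest from the median of Malat1 are HL (collection 5 replicate 2 at 18959.3 CPM and collection 2 replicate 3 at 18591.0). The differences in r between the treatments were not tested. Malat1 itself was 0.29 lower in HH than in HL on the log2 scale by title (adjusted p = 0.703 in edgeR). All 9 tested members were below 0 in that fit as well, so this direction is not particular to mt-Nd6 and mt-Co1. Some libraries with few detected genes also had much Malat1. The 6 lowest had 8225 to 8795 genes above 5 CPM, apart from the next at 8971, and 4 of them are HL, 1 LH and 1 HH. In 4 of the 6 (HL collection 2 replicate 3, HL collection 5 replicate 2, HL collection 6 replicate 3 and LH collection 2 replicate 1), mt-Nd6 was at 15.4 to 27.2 CPM, mt-Co1 at 890 to 1184.2 CPM and Malat1 at 11707.1 to 18959.3 CPM. In the other two mt-Nd6 was at 4.72 CPM (HL collection 6 replicate 4) and 1.47 CPM (HH collection 2 replicate 1). The part of Malat1 and of the number of detected genes in the differences of these genes was not tested.

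**Figure D5:**
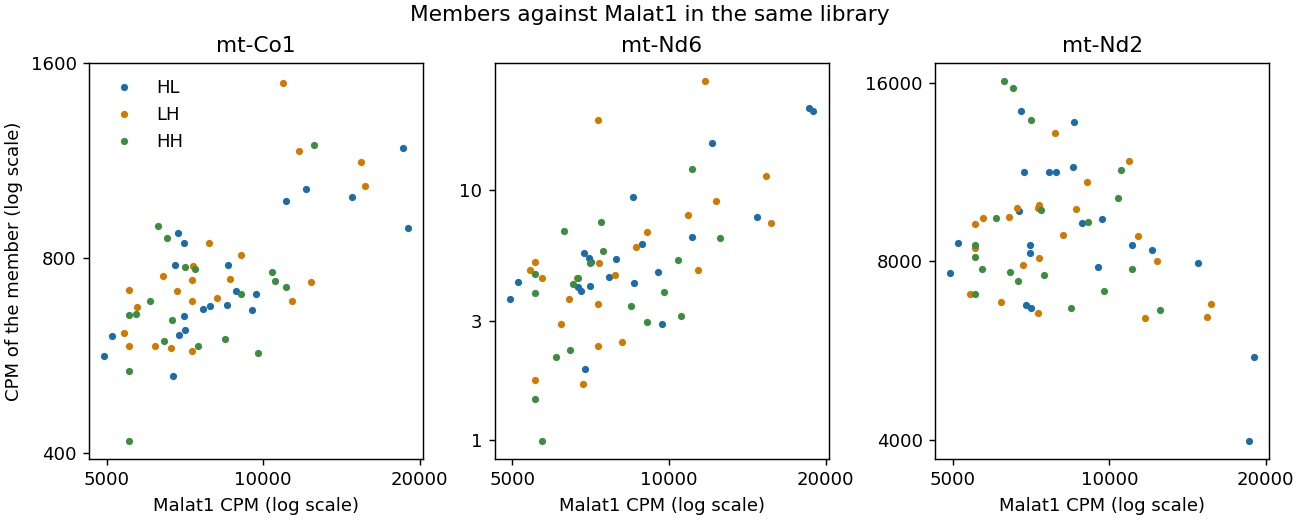
CPM of mt-Co1, mt-Nd6 and mt-Nd2 against the CPM of Malat1 (both axes log), each point 1 of 62 libraries, coloured by treatment. mt-Co1 and mt-Nd6 are higher where Malat1 is higher (r 0.672 and 0.640), and mt-Nd2 is lower in a few libraries with much Malat1 (r -0.325).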

How the data were processed

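RNA of the 62 libraries was sequenced by 3′DGE. The authors deposited read counts per gene without normalization, 1 set for each of 121 sequencing runs, from uniquely aligned reads. The submitters' processing notes name bcl2fastq, STAR 2.6.0a, HTSeq 0.9.1 and mm10. Neither the strand setting nor the release of the annotation is given in the sources. Reads on no feature (18.4% to 29.1%) and ambiguous reads (0.288% to 0.459%) were left out of totals. Runs were summed by library. Pairs of libraries of 1 group differed more (chi-square per degree of freedom at least 3.16) than runs of a library (at most 2.36), so each library counted as 1 replicate. All columns were used. GENCODE M21 gave symbols for 30934 of 31053 genes.

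Genes that reached 1 CPM in 3 or more libraries entered edgeR 4.0.16 (R 4.3.3), quasi-likelihood test and TMM scaling, with treatment and collection as terms, their interaction, or, for rhythms, 24 h cosine and sine terms by treatment. P-values were adjusted over all genes tested. JTK_CYCLE was rewritten with the null distribution of collections as separate groups (period 24 h, phases in steps of 2 h). Its P was corrected over the phases. Correlations used log2(CPM + 0.5), with TMM scaling for the genes most like the members, in Python 3.11.15 with SciPy 1.17.1. DESeq2 1.42.0, other scalings and filters, each run alone, names by library number, a replicate block and leaving out each replicate were alternatives. Those added after the data were seen left out libraries under 1000000 counts by number, for edgeR and for JTK_CYCLE, gave the cosinor a replicate block, and fitted the differences within collections by number and without each library of LH or HH collection 2.

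On simulated data (13292 genes), edgeR found 176 of 200 changes of 2-fold in LH against HL past the unadjusted thresholds and made 78 false calls among 12492 genes. After adjustment it found 136 of 200 changes of 2-fold in 1 collection and 41 of 200 in 1 collection of LH alone. JTK_CYCLE found 139 of 200 rhythms of a 4-fold range in HH and made 35 false calls among 12492 genes at P under 0.01.

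Named genes are the members, the other mtDNA genes, nuclear copies, called genes and the smallest p of each list, and the 5 genes most like the members over all libraries (1 of which is not reported here) and after group means were subtracted. The members and lists were chosen with earlier results of these data known. Libraries of the same replicate number did not deviate together (median r 0.00529, against -0.000457 for other numbers), so the numbers were not taken as pairs.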

Additional observations from a re-analysis of the deposited data

Results flagged for a closer look

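Of 99 groups of 4 libraries (1 of the 9 detected members, their summed share of all counts, or the total count, in 1 treatment and collection), 9 had a library far from the others, by a test that chance sets off in about 1 in 20 groups. LH collection 4 replicate 2 was high for 3 genes, with 5891.6 CPM of mt-Nd1 (others 4461.6 to 4634.2), 29.1 CPM of mt-Nd3 (11.2 to 13.2) and 1126.6 CPM of mt-Co1 (672 to 714). The same library had 15394.7 CPM of Malat1, beside 5525.3 to 8135.1 in the others of its group.

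mt-Nd6 was high in HL collection 2 replicate 3 (21.3 CPM, others 5.29 to 7.82) and in HL collection 6 replicate 3 (15.4 CPM, others 3.66 to 4.72), and low in LH collection 3 replicate 2 (2.92 CPM, others 4.79 to 5.15). mt-Co3 was low in LH collection 4 replicate 3 (21.9 CPM, others 31.2 to 32.8). The total count was high in LH collection 3 replicate 1 (8154566, others 6454806 to 6501620) and in LH collection 4 replicate 4 (8101013, others 5627529 to 5741233).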

How the results depend on the processing

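Of the alternatives for single members, 1627 kept the direction and side of the threshold, 28 came past the threshold, 2 fell short of it and 42 turned direction, all log2 differences between treatments. Of these, only mt-Nd4 by library number, in LH against HL and in LH against HH, passed the unadjusted thresholds. By library number, with or without libraries under 1000000 counts, LH against HL turned to 0.32 for mt-Nd4, 0.49 for mt-Nd6, 0.10 for mt-Co3, 0.09 for mt-Nd5 and -0.13 for mt-Nd3, HH against HL to 0.11 for mt-Nd4 and 0.06 for mt-Nd5, and LH against HH to 0.22 for mt-Nd4 and 0.02 for mt-Nd2. The difference of mt-Nd5 in LH against HH, 0.00 to 2 decimals, has no direction to turn and was not counted. It was -0.10 to 0.03 over the alternatives by title and 0.02 by library number. With library totals, with or without mtDNA genes, mt-Nd5 turned to 0.02 in LH against HL and 0.03 in HH against HL, and mt-Nd2 to 0.01 in HH against HL. In the second run alone mt-Co1 turned to -0.05 (LH against HL) and mt-Nd1 to -0.02 (LH against HH), and without libraries marked as removed mt-Nd5 to 0.01 (HH against HL). Leaving out replicates spanned 0 in LH against HL for mt-Nd3 (-0.05 to 0.17), mt-Nd5 (-0.08 to 0.02), mt-Nd6 (-0.37 to 0.14) and mt-Co1 (-0.03 to 0.08), in HH against HL for mt-Nd2 (-0.07 to 0.04) and mt-Nd5 (-0.04 to 0.03), and in LH against HH for mt-Nd2 (-0.09 to 0.03) and mt-Nd4 (-0.08 to 0.04). By library number, with or without those libraries, 1 member passed in LH against HL, 1 in LH against HH, 4 over collections and 1 was rhythmic in HL. With no filter on low counts 1 member passed over collections (mt-Nd6; 3.70% of genes), 5 for the interaction (5.19%) and 1 for the rhythm difference (mt-Nd4; 1.42%). DESeq2 called 1 over collections (mt-Nd6; 3.13%) and 3 for the interaction (1.35%). Unadjusted, 3 passed over collections, 5 for the interaction and 2 for the rhythm difference. In HL, 1 member was rhythmic at a threshold of 0.05 (2.68% of genes) and 1 in a cosinor (1.12%), and in LH 0 after adjustment. Leaving out replicates gave 0 to 1 members over collections (1 without HL replicate 2; 2.33% of genes), 0 to 2 for the interaction (2 without HL replicate 3 or 4, with 0.923% and 0.431% of genes, and 1 without LH replicate 1, with 0.167%) and 0 to 1 rhythmic in LH (0 without LH replicate 3). The cause of these changes was not tested.

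A replicate block left 0 members past the threshold between treatments, over collections and for the interaction, and with it the cosinor, at an unadjusted p under 0.01, called 1 member in LH (2.94% of genes) and 0 in HL (1.02%) and in HH (2.6%). Of 61 libraries, 19 were closest to one of their own number. At the median depth 1 count is 0.172 CPM, so mt-Nd6, mt-Co2 and mt-Nd3 rest on medians of 27.5, 33 and 63 counts in a library.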
